A study of Mus musculus with 9 samples.

Results

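Memory T cells listen to the cytokines of a type 1 response through receptors built of 2 different chains, and the 9 genes described here encode such chains: Il12rb1 and Il12rb2 (IL-12 receptor), Il18r1 and Il18rap (IL-18 receptor), Il27ra (the IL-27-specific chain), Ifngr1 and Ifngr2 (interferon gamma receptor), and Ifnar1 and Ifnar2 (receptor of type I interferons). They were taken by name as 9 of the 48663 entries of the deposited count table. All 9 had counts and all 9 passed the filter on low counts that 15738 genes passed.

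RNA was sequenced from 9 libraries of splenic mouse T cells, 3 per group, sampled at day 30 of an infection with lymphocytic choriomeningitis virus, Armstrong strain (LCMV Arm). The CD4 ThpokAD libraries came from GP66:I-Ab+ cells, CD4 T cells that bind an MHC class II tetramer carrying a viral glycoprotein peptide, of Ox40-Cre+ Thpokfl/fl mice, in which Cre from the Ox40 (Tnfrsf4) gene removes floxed Thpok in cells that have switched Ox40 on, as activated CD4 T cells do. The CD8 control libraries came from GP33:H-2Db+ cells, CD8 T cells that bind a class I tetramer, of Ox40-Cre- mice. The CD4 control libraries came from GP66:I-Ab+ cells of Ox40-Cre- mice. The labels give no age, and for the control mice no state of the Thpok alleles. Because Cre was carried by the CD4 ThpokAD mice alone, loss of Thpok and presence of Cre cannot be told apart here. Between CD8 control and CD4 control libraries the lineage, the peptide and the tetramer cannot be told apart. Between CD4 ThpokAD and CD8 control libraries, Thpok loss, Cre, lineage, peptide and tetramer all differ together and cannot be told apart. The labels number the replicates without saying that they came from separate animals, so p-values measure the spread between these libraries, which may be technical.

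Library totals ran between 16664474 and 38981516 counts. Zbtb7b, the gene of Thpok, averaged 0.807 ± 0.0953 CPM (the field's depth-scaled read count) in CD4 ThpokAD libraries, 20.8 ± 2.87 CPM in CD8 control libraries and 45.0 ± 5.68 CPM in CD4 control libraries (SD, n = 3 each), lowest in the libraries labelled as lacking it. Cd4 lay between 551 and 679 CPM in CD4 ThpokAD, between 0.222 and 2.26 CPM in CD8 control and between 1300 and 1410 CPM in CD4 control libraries, while the sum of 7 T cell markers overlapped between all 3 groups. That sum hides opposite differences of its members between CD8 control and CD4 control libraries. Cd3d was higher in CD8 control (660 against 453 CPM). Trac (837 against 1568 CPM) and Trbc2 (623 against 819 CPM) were lower. CPM here divide by a library's effective size, its count over the genes that passed the filter multiplied by a TMM factor. A gene is said to rise, fall or be called where edgeR's quasi-likelihood test, fitted over all 9 libraries and 15738 genes, gave a Benjamini-Hochberg adjusted p under 0.05, and ± marks an SD over 3 libraries or, beside a log2 fold change, its standard error (SE). Any pair of the 3 comparisons has a group in common, and the comparisons are therefore not independent. In bulk RNA, fewer cells of a type and less RNA per cell cannot be told apart.

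Each receptor works as a pair. IL-12Rβ1 binds the p40 subunit that IL-12 shares with IL-23, and IL-12Rβ2 carries the signal to STAT4. IL-18Rα, the product of Il18r1, binds IL-18 and then recruits the accessory chain IL-18Rβ, the product of Il18rap, without which MyD88 and the IRAK kinases are not engaged. IL-27Rα signals together with gp130, the product of Il6st. IFN-γR1 binds interferon gamma and IFN-γR2 brings in JAK2; mouse Th1 cells are known to keep IFN-γR2 low. IFNAR2 binds type I interferons tightly and IFNAR1 completes the complex with TYK2. IL-12 together with IL-18 is known to make memory T cells release interferon gamma without antigen.

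The IL-18 receptor chains and the 2 abundant interferon receptor chains that differed between CD8 and CD4 cells carry the results below, and they are shown by the sequence around their transcription starts, 250 bases before and 50 after, from RefSeq on GRCm38.p6. Capitals mark a match, on either strand, to a Runx motif (TGTGGT) or a STAT motif (TTCNNNGAA).
Il18rap, chr1:40515112-40515411, plus strand: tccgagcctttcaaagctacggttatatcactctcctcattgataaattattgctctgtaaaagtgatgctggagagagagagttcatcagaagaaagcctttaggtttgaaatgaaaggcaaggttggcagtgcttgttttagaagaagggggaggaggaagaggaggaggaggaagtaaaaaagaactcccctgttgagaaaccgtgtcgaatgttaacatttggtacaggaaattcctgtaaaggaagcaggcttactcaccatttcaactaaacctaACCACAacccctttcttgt
Il18r1, chr1:40465302-40465601, plus strand: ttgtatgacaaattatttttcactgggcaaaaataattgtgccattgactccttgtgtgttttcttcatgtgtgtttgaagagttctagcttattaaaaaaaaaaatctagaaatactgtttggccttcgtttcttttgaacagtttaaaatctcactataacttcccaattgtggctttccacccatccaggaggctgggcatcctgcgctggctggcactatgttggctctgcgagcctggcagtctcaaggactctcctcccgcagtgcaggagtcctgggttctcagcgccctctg
Ifngr1, chr10:19591699-19591998, plus strand: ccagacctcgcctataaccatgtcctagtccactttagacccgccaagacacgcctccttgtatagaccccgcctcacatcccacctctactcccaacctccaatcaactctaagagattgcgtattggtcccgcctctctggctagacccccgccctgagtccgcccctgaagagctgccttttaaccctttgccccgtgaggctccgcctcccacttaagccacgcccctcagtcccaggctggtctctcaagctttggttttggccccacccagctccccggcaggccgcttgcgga
Ifnar1, chr16:91484965-91485264, plus strand: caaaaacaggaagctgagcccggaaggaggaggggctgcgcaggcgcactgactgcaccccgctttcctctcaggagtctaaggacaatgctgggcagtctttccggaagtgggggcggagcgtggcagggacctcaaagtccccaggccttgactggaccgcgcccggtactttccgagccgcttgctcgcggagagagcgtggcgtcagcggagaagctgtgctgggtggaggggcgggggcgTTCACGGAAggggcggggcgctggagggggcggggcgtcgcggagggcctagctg
Il18rap held the Runx letters at position 32 downstream of its start site, a motif found in 16.9% of 27025 mouse promoters of this length. Ifnar1 held the STAT letters at position -5, a motif found in 8.47% of those promoters. Neither motif, nor a T-box motif (GGTGTGA, in 3.96% of promoters) or an interferon response motif (GAAA, any 2 bases and GAAA again, in 3.49%), was present in these windows of Il18r1 and Ifngr1. RefSeq lists 3 starts for Il18r1, and only that nearest the annotated gene start was searched. The other promoters found in the table were those of Il12rb2 and Ifnar2, each with a STAT match, and of Ifngr2, with no match, so 7 of the 9 genes had an entry. A match describes letters and is not a binding site.

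What losing Thpok does to CD4 memory cells is asked by setting CD4 ThpokAD libraries against CD4 control libraries. Il18rap rose 2.72-fold and was the only called chain among the 9. No chain fell. Calls were made for 2.74% of all tested genes (1.81% higher and 0.928% lower), and with 9 chains a single call is a count too small to set the group apart. Libraries of the 2 groups did not overlap for 1 chain that was higher and 3 that were lower, where 13.2% and 12.5% of all genes did so. The median log2 fold change of the 9 chains was -0.21, beside 0.0035 over all tested genes.

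CD8 control cells differed from CD4 control cells in more chains. Il18rap rose, and Ifngr1, Ifngr2 and Ifnar1 fell, making 4 called chains of 9, where 11.7% of all genes were called. Of these 1 was higher (5.13% of all genes) and 3 were lower (6.55% of all genes). Libraries did not overlap for 3 chains that were higher and 3 that were lower, against 17.3% and 16.6% of all genes, and the median log2 fold change was -0.06, beside 0.01 over all genes. CD4 ThpokAD libraries set against CD8 control libraries had Ifngr1 and Ifnar1 higher and Il18r1 lower, 3 called chains of 9 where 6.54% of all genes were called (4.63% higher and 1.91% lower), with 3 chains higher and 2 lower without overlap (14.6% and 12.6% of all genes). The median there was -0.14, beside -0.006 over all genes.

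**Figure D1:**
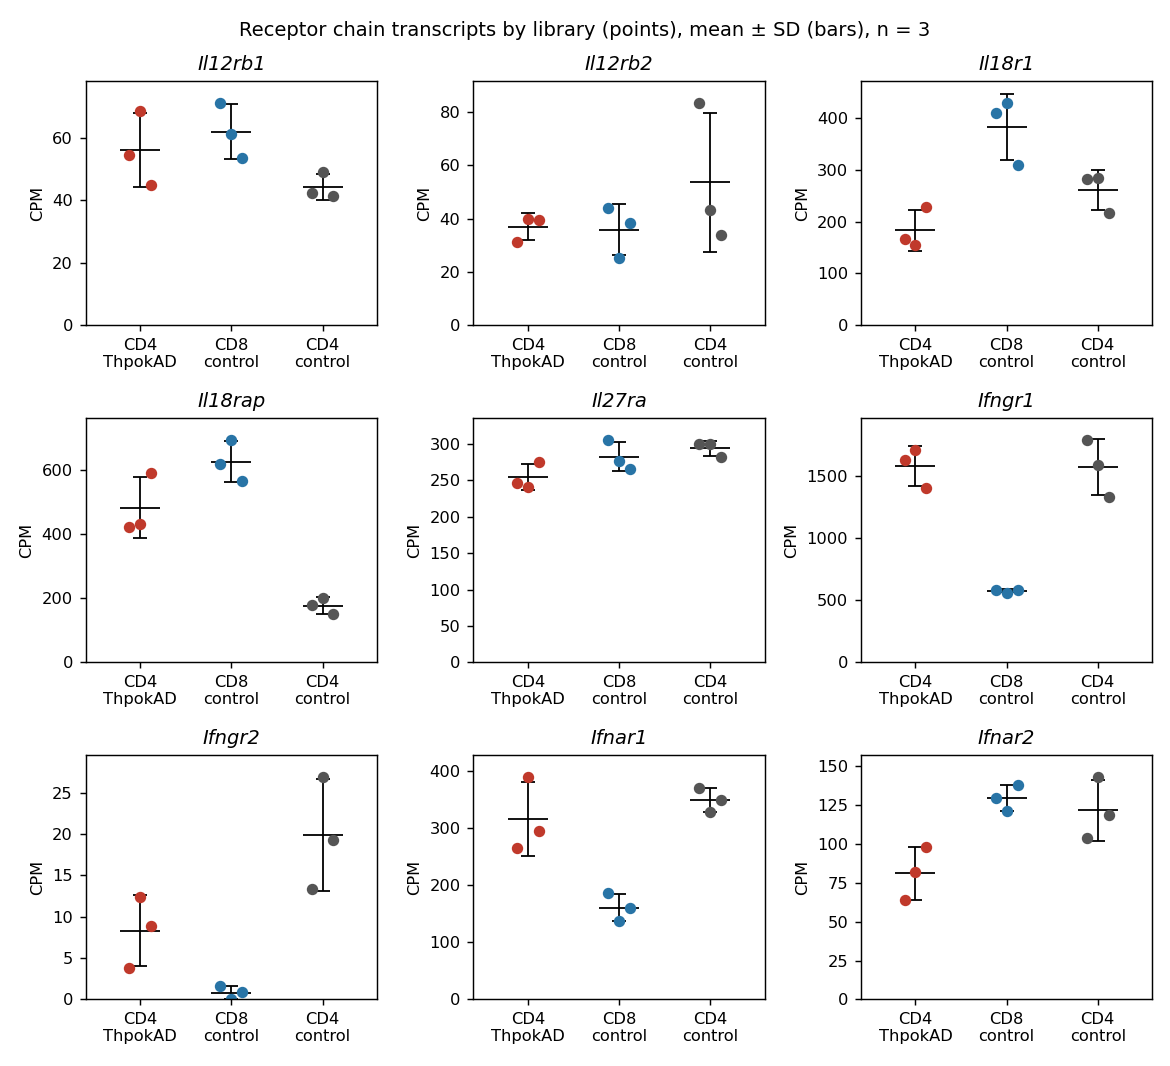
CPM of the 9 receptor chains, 1 panel per gene with a linear axis from 0, in each library (points), CD4 ThpokAD on the left, CD8 control in the middle and CD4 control on the right, with mean ± SD as bars (n = 3). Il18rap in the CD4 ThpokAD libraries, between 423 and 591 CPM, lies above all CD4 control libraries, and Ifngr1 in CD8 control libraries, between 562 and 585 CPM, lies below the rest.

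The accessory chain of the IL-18 receptor rose in Thpok-deficient CD4 cells, and the ligand-binding chain did not pass the test there. Il18rap (chromosome 1, 40515362 to 40551705, plus strand; all gene positions are on mm10 with GENCODE M21) had 423, 430 and 591 CPM in CD4 ThpokAD libraries, 618, 692 and 566 CPM in CD8 control libraries, and 179, 202 and 150 CPM in CD4 control libraries. Every CD4 ThpokAD and CD8 control library stood above every CD4 control library. Its log2 fold change was 1.44 ± 0.17 (edgeR adjusted p = 0.00291) in CD4 ThpokAD against CD4 control and 1.82 ± 0.17 (edgeR adjusted p = 0.000214) in CD8 control against CD4 control. CD4 ThpokAD libraries overlapped CD8 control libraries, with a log2 difference of -0.38 ± 0.17 (edgeR adjusted p = 0.233) and a 95% interval between -0.75 and -0.0015.

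Il18r1, the ligand-binding partner, was lowest in CD4 ThpokAD and highest in CD8 control cells. The gene lies 14507 bases before Il18rap on the same strand (40465552 to 40500854). It had 166, 156 and 228 CPM in CD4 ThpokAD libraries, 411, 430 and 310 CPM in CD8 control libraries, and 283, 286 and 218 CPM in CD4 control libraries. Replicate 3 of CD4 ThpokAD, at 228 CPM, reached into the CD4 control range, and the log2 fold change of -0.52 ± 0.19 against CD4 control was not called (edgeR adjusted p = 0.228). Against CD8 control libraries Il18r1 fell, with a log2 fold change of -1.06 ± 0.19 (edgeR adjusted p = 0.0137) and no overlap. That call was lost when CD4 ThpokAD replicate 1 or replicate 2 was left out (adjusted p = 0.0583 and 0.0563). The difference between CD8 control and CD4 control was 0.55 ± 0.19 on the log2 scale (edgeR adjusted p = 0.107), with all 3 CD8 libraries above all 3 CD4 control libraries.

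Set against each other per kilobase of exon, the 2 IL-18 receptor chains held a different ratio in each group. Il18rap stood at 1.82, 1.97 and 1.85 times the per-kilobase level of Il18r1 in CD4 ThpokAD libraries, at 1.07, 1.15 and 1.30 times in CD8 control libraries, and at 0.450, 0.505 and 0.493 times in CD4 control libraries. The groups did not overlap and the ratio was highest in CD4 ThpokAD cells. The mean log2 ratio was 1.96 higher in CD4 ThpokAD than in CD4 control libraries and 0.68 higher than in CD8 control libraries, where the pooled SDs within groups were 0.075 and 0.109. An exact two-sided permutation test gave p = 0.1 for each, the smallest that 3 against 3 libraries allow, and 0.15 after adjustment over the 15 ratio comparisons made.

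Sums of NK cell, CD8 T cell and myeloid markers moved with Il18rap in CD4 ThpokAD against CD4 control. The sum of 9 NK cell markers lay between 226 and 287 CPM in CD4 ThpokAD libraries, between 265 and 306 CPM in CD8 control libraries and between 54.8 and 65.6 CPM in CD4 control libraries, and 5 of the 8 tested rose in CD4 ThpokAD against CD4 control. Some of the list, Eomes, Tyrobp, Fcer1g and Klre1, are also found in effector CD8 T cells. Ncr1, a defining marker, lay between 0 and 3.18 CPM in CD4 ThpokAD and between 0 and 7.75 CPM in CD8 control libraries. Klra8 had no count in CD4 ThpokAD libraries, and Ncr1, Klra8 and Klra4 had none in CD4 control libraries. The CD8 markers Cd8a and Cd8b1 summed to between 90.8 and 123 CPM in CD4 ThpokAD libraries, between 2830 and 3830 CPM in CD8 control libraries and between 17.8 and 27.9 CPM in CD4 control libraries, and both rose in CD4 ThpokAD against CD4 control. The sum of 8 myeloid markers lay between 327 and 399 CPM in CD4 ThpokAD, between 121 and 347 CPM in CD8 control and between 167 and 280 CPM in CD4 control libraries. Itgam and Cd68 were called higher in CD4 ThpokAD against CD4 control, and none of the 8 was at 0 in any group. S100a8 and S100a9 went the other way without a call. They averaged 5.38 and 4.53 CPM in CD4 ThpokAD and 21.5 and 16.6 CPM in CD4 control libraries. In CD8 control libraries Itgam averaged 33.0 CPM, near the 34.6 CPM of CD4 ThpokAD. Cd68 averaged 21.3 CPM there, near the 22.5 CPM of CD4 control. The part of these cell types in the Il18rap result was not tested.

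**Figure D2:**
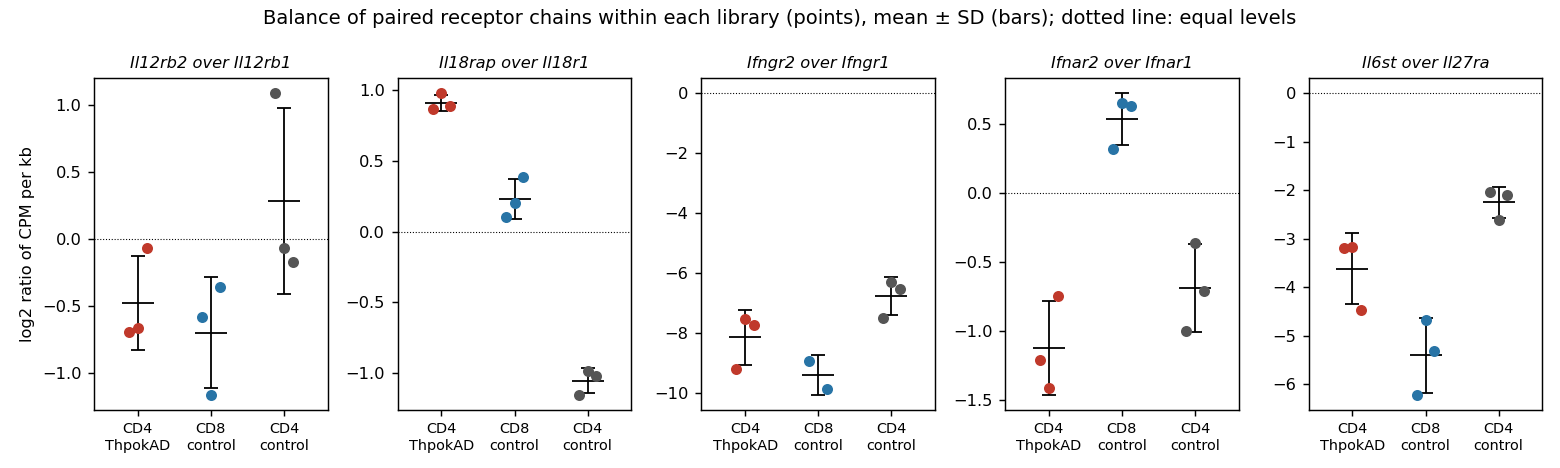
Log2 ratio of the 2 chains of each receptor, both as CPM per kilobase of exon, in each library (points) with mean ± SD (bars; n = 3, and n = 2 for Ifngr2 over Ifngr1 in CD8 control), CD4 ThpokAD left, CD8 control middle, CD4 control right. The Il18rap to Il18r1 ratio separates all 3 groups, with means of 0.908, 0.229 and -1.053 in that order.

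Neither IL-12 receptor chain was called in any comparison. Il12rb1 (chromosome 8, 70808449 to 70821424, plus strand) had 54.5, 68.8 and 45.0 CPM in CD4 ThpokAD libraries, 71.2, 61.2 and 53.6 CPM in CD8 control libraries, and 42.4, 49.2 and 41.4 CPM in CD4 control libraries. In CD4 ThpokAD against CD4 control its log2 fold change was 0.34 ± 0.20 (edgeR adjusted p = 0.479), with overlap. All CD8 control libraries lay above all CD4 control libraries, by 0.48 ± 0.20 on the log2 scale, which was not called (edgeR adjusted p = 0.158). Il12rb2, the chain that T-bet and interferon are known to sustain in Th1 cells (chromosome 6, 67291318 to 67376188, minus strand), had 31.1, 40.0 and 39.6 CPM in CD4 ThpokAD libraries, 43.9, 25.2 and 38.6 CPM in CD8 control libraries, and 83.4, 43.4 and 34.0 CPM in CD4 control libraries. CD4 control replicate 1 was the highest of all, and the 3 groups overlapped. Its log2 fold changes against CD4 control were -0.54 ± 0.35 in CD4 ThpokAD and -0.58 ± 0.34 in CD8 control libraries (edgeR adjusted p = 0.532 and 0.339). Of its exon bases, 1519 are shared with Serbp1 on the other strand, and since the library kit does not mark strand, reads there cannot be assigned to either gene.

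The IL-27-specific chain was not called in any comparison. Il27ra (chromosome 8, 84030294 to 84042589, minus strand) had 247, 242 and 276 CPM in CD4 ThpokAD libraries, 305, 277 and 266 CPM in CD8 control libraries, and 299.9, 300.2 and 282 CPM in CD4 control libraries. All CD4 ThpokAD libraries lay just under all CD4 control libraries, a log2 difference of -0.21 ± 0.10 that was not called (edgeR adjusted p = 0.384), with a 95% interval between -0.44 and 0.025. Its partner Il6st, which cytokines of the IL-6 group also use, was lower in both other groups than in CD4 control cells. Il6st averaged 69.9 ± 26.2 CPM in CD4 ThpokAD, 22.8 ± 10.7 CPM in CD8 control and 199.5 ± 39.3 CPM in CD4 control libraries. In CD8 control against CD4 control it fell by 3.13 on the log2 scale (edgeR adjusted p = 0.00161), and its log2 fold change of -1.51 ± 0.39 in CD4 ThpokAD against CD4 control was not called (edgeR adjusted p = 0.0871). Per kilobase, Il27ra stood above Il6st 12.3-fold in CD4 ThpokAD, 42.4-fold in CD8 control and 4.75-fold in CD4 control libraries (geometric means).

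The ligand-binding chain of the interferon gamma receptor was lower in CD8 cells than in either CD4 group. Ifngr1 (chromosome 10, 19591949 to 19610229, plus strand) had 1631, 1711 and 1406 CPM in CD4 ThpokAD libraries, 584, 562 and 585 CPM in CD8 control libraries, and 1789, 1594 and 1336 CPM in CD4 control libraries. Both CD4 groups overlapped and every CD8 control library lay below them. The log2 fold change was 0.009 ± 0.12 in CD4 ThpokAD against CD4 control (edgeR adjusted p = 0.986), with a 95% interval between -0.27 and 0.29, and this sign turned with the scaling used. Ifngr1 rose by 1.46 ± 0.13 in CD4 ThpokAD against CD8 control (edgeR adjusted p = 0.000205) and fell by 1.45 ± 0.13 in CD8 control against CD4 control (edgeR adjusted p = 0.000132), both on the log2 scale. It was the most abundant of the 9 chains per kilobase in every group, with 556 ± 55.5, 203 ± 4.47 and 553 ± 79.8 CPM per kilobase in CD4 ThpokAD, CD8 control and CD4 control libraries.

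A sum of dendritic cell markers moved with Ifngr1, and likewise with the falls of Ifngr2 and Ifnar1 in CD8 control libraries described below. The sum of 7 of them lay between 764 and 1610 CPM in CD4 ThpokAD libraries, between 220 and 338 CPM in CD8 control libraries and between 742 and 1390 CPM in CD4 control libraries. H2-Aa, H2-Ab1 and Cd74 fell in CD8 control against CD4 control, 3 of the 6 that could be tested, and Siglech had no count in either CD4 group. These 3 made up most of the sum, averaging 148, 244 and 582 CPM in CD4 control libraries. Flt3, Zbtb46 and Xcr1 were not called, and averaged 6.11, 12.4 and 10.1 CPM there. In CD8 control libraries they averaged 2.51, 4.39 and 13.2 CPM, so Xcr1 went the other way. Of the 8 myeloid markers, Csf1r, Cd14 and Cd68 were called higher in CD4 ThpokAD against CD8 control. In CD8 control against CD4 control none of those 8 was called lower, and Itgam rose. The part of dendritic and myeloid cells in the Ifngr1, Ifngr2 and Ifnar1 results was not tested.

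The signalling chain was the rarest of the 9 in every group. Ifngr2 (chromosome 16, 91547072 to 91565623, plus strand) had 75, 226 and 168 counts in CD4 ThpokAD libraries, 38, 0 and 34 counts in CD8 control libraries, and 215, 470 and 332 counts in CD4 control libraries. In CPM these were 3.74, 12.4 and 8.91 for CD4 ThpokAD, 1.59, 0 and 0.838 for CD8 control, and 13.4, 26.9 and 19.4 for CD4 control. The 3 groups did not overlap. A count of 0 in CD8 control replicate 2 allows up to 0.145 CPM (3 counts, counting error only). Ifngr2 fell in CD8 control against CD4 control, with a log2 fold change of -4.60 ± 1.08 (edgeR adjusted p = 0.0263). That call was lost without CD8 control replicate 3 (adjusted p = 0.0923) and without CD4 control replicate 1, 2 or 3 (0.053, 0.0843 and 0.0655). The differences of CD4 ThpokAD from CD8 control, 3.34 ± 1.03, and from CD4 control, -1.25 ± 0.94, were not called on the log2 scale (edgeR adjusted p = 0.0974 and 0.611). DESeq2, limma on the deposited scaled values and bias-adjusted edgeR deviances did call the first of these (adjusted p = 0.00234, 0.0158 and 0.019).

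Ifngr1 stood above Ifngr2 per kilobase by 280-fold in CD4 ThpokAD and 108-fold in CD4 control libraries (geometric means of 3). In the 2 CD8 control libraries with an Ifngr2 count it stood 670-fold above. In CD8 control replicate 2 the ratio of Ifngr2 to Ifngr1 was at most 0.000195. CD4 ThpokAD libraries lay below all CD4 control libraries in the Ifngr2 to Ifngr1 ratio, by 1.37 on the log2 scale with a pooled SD of 0.778 (exact two-sided permutation p = 0.1, adjusted 0.15).

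The type I interferon receptor chains differed in the group where each was lowest, CD8 control for Ifnar1 and CD4 ThpokAD for Ifnar2. Ifnar1 (chromosome 16, 91485238 to 91507441, plus strand) had 265, 388 and 294 CPM in CD4 ThpokAD libraries, 185, 138 and 159 CPM in CD8 control libraries, and 371, 328 and 349 CPM in CD4 control libraries. As with Ifngr1, both CD4 groups overlapped and all CD8 control libraries were lower, in the same direction as the sum of dendritic cell markers. On the log2 scale Ifnar1 rose by 0.97 ± 0.17 in CD4 ThpokAD against CD8 control (edgeR adjusted p = 0.0105) and fell by 1.12 ± 0.17 in CD8 control against CD4 control (edgeR adjusted p = 0.00314). Its log2 fold change in CD4 ThpokAD against CD4 control was -0.15 ± 0.17 (edgeR adjusted p = 0.771), with a 95% interval between -0.52 and 0.23.

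Ifnar2 (chromosome 16, 91372783 to 91405589, plus strand; 315 of its exon bases are also annotated to Gm21970 on the same strand) had 64.1, 81.8 and 98.0 CPM in CD4 ThpokAD libraries, 129.7, 121 and 138 CPM in CD8 control libraries, and 104, 143 and 119 CPM in CD4 control libraries. All CD4 ThpokAD libraries lay below all libraries of both control groups. The log2 fold change was -0.67 ± 0.18 against CD8 control (edgeR adjusted p = 0.0654) and -0.58 ± 0.18 against CD4 control (edgeR adjusted p = 0.153), and neither was called. Against CD8 control the call was made by DESeq2, limma and bias-adjusted deviances (adjusted p = 0.0111, 0.0491 and 0.0435), and against CD4 control by DESeq2 (adjusted p = 0.0356).

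The Ifnar2 to Ifnar1 ratio per kilobase was 0.432, 0.376 and 0.595 in CD4 ThpokAD libraries, 1.25, 1.57 and 1.55 in CD8 control libraries, and 0.500, 0.777 and 0.609 in CD4 control libraries. By merged exon length, CD8 control libraries had more Ifnar2 than Ifnar1 RNA per kilobase and both CD4 groups had less. For CD8 control this depends on the length used. Longest-transcript lengths shift the log2 ratio by -0.476, more than the 0.32 of CD8 control replicate 1 and close to the CD8 mean of 0.534. The mean log2 ratio in CD8 control libraries was 1.23 above that in CD4 control libraries, and in CD4 ThpokAD libraries it was 1.66 below that in CD8 control libraries (exact two-sided permutation p = 0.1 each, adjusted 0.15). The CD4 ThpokAD and CD4 control ratios overlapped.

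**Figure D3:**
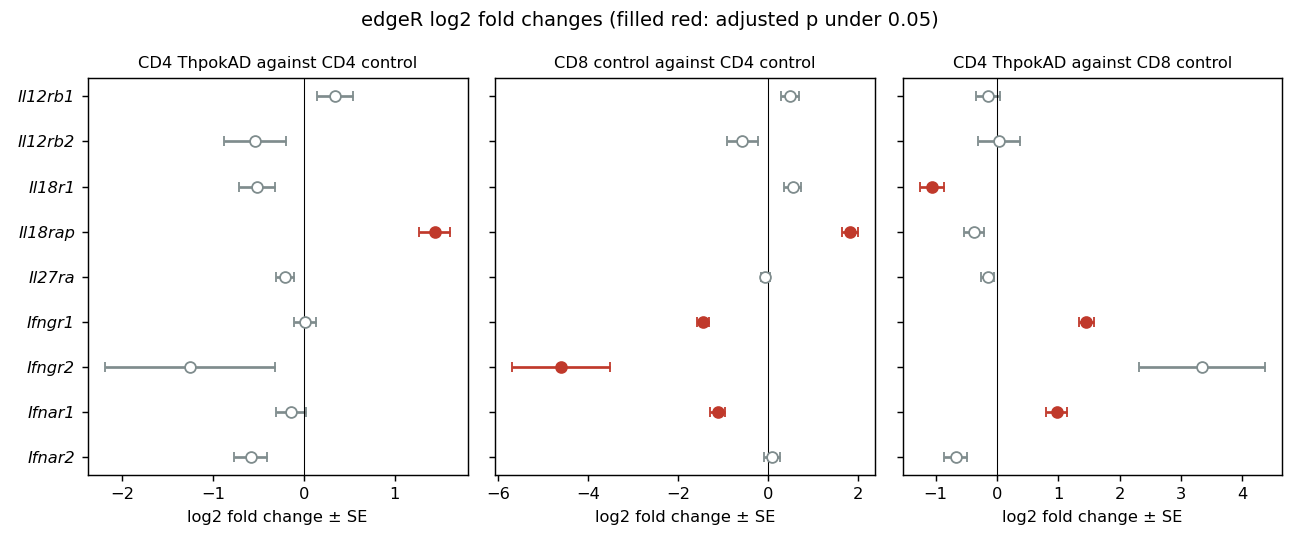
Log2 fold changes ± SE for the 9 receptor chains in the 3 comparisons, with filled points where the adjusted p was under 0.05. Il18rap lies to the right of 0 at 1.44 in CD4 ThpokAD against CD4 control, while Ifngr1 and Ifnar1 lie near 0 there and far from 0 in both comparisons with CD8 control libraries.

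In level per kilobase of merged exons, the order of the chains in CD4 ThpokAD cells was Ifngr1, then Il27ra (72.8 ± 5.25) and Il18rap (71.3 ± 14.1), then Ifnar1 (53.1 ± 10.9), Il18r1 (38.1 ± 8.10), Ifnar2 (24.4 ± 5.10), Il12rb1 (13.7 ± 2.91), Il12rb2 (9.73 ± 1.32) and Ifngr2 (2.21 ± 1.15 CPM per kilobase). The mean ± SD of Il27ra, Il18rap, Ifnar1 and Il18r1 each overlapped the next in that order, as did those of Il12rb1 and Il12rb2. The order of such close chains depends on the length chosen. The longest transcript has 4889 bases for Il18rap (6752 merged) and 2931 for Il27ra (3495 merged). Il12rb2 was divided by 3794 bases, including the 1519 shared with Serbp1. In CD8 control cells Il18rap ranked second with 92.6 ± 9.36 CPM per kilobase, and in CD4 control cells it ranked sixth with 26.2 ± 3.83 CPM per kilobase. Across the 9 libraries, log2 CPM of Ifngr1 and Ifnar1 had a Pearson r of 0.94 and Ifngr2 and Ifnar1 of 0.937, while Il18r1 and Il18rap had 0.276 and Ifnar1 and Ifnar2 had -0.379. These r values describe 9 libraries in 3 groups and carry no test. Among 8272 genes of sufficient level, the closest to Il18rap in the same measure were Lrrk1 (0.987), Ifitm10 (0.982) and Nkg7 (0.98), the last a cytotoxic granule protein. The closest to Ifngr1 were Casp4 (0.988), Tigit (0.988), an inhibitory receptor, and Fosl2 (0.987), an AP-1 subunit. Morf4l1 (0.984) was closest to Ifnar1, Klf9 (0.981) to Ifngr2, Mypopos (0.956) to Il18r1, Znfx1 (0.948) to Il27ra, Tmem209 (0.94) to Ifnar2, Zfp930 (0.918) to Il12rb1 and Rab11fip3 (0.916) to Il12rb2.

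No tested neighbour of these genes was called in CD4 ThpokAD cells against CD4 control cells, where 2.74% of all genes were called. With so few neighbours, the lack of a call does not set them apart from other genes. Il18r1 and Il18rap sit among other receptors of the IL-1 family on chromosome 1, and of 7 neighbours there 4 were tested (median log2 fold change -0.23). Il1rl1, the IL-33 receptor gene, had a log2 fold change of -0.55 ± 0.59 (edgeR adjusted p = 0.751). On chromosome 16, Ifnar2, Il10rb, Ifnar1 and Ifngr2 lie in that order, with 10 tested neighbours counting Il10rb (median -0.21). In CD8 control against CD4 control, Il10rb, a shared chain of the IL-10 and IL-22 receptors, rose by 1.18 ± 0.20 on the log2 scale (edgeR adjusted p = 0.00525), between an Ifnar2 that was not called and an Ifnar1 that fell. Gart rose there too and Tmem50b fell, so called genes of both directions stood in 1 cluster. In that comparison 11.7% of all genes were called. Leaving out any single CD4 control library, and some others, ended the call of Gart (adjusted p up to 0.147).

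**Figure D4:**
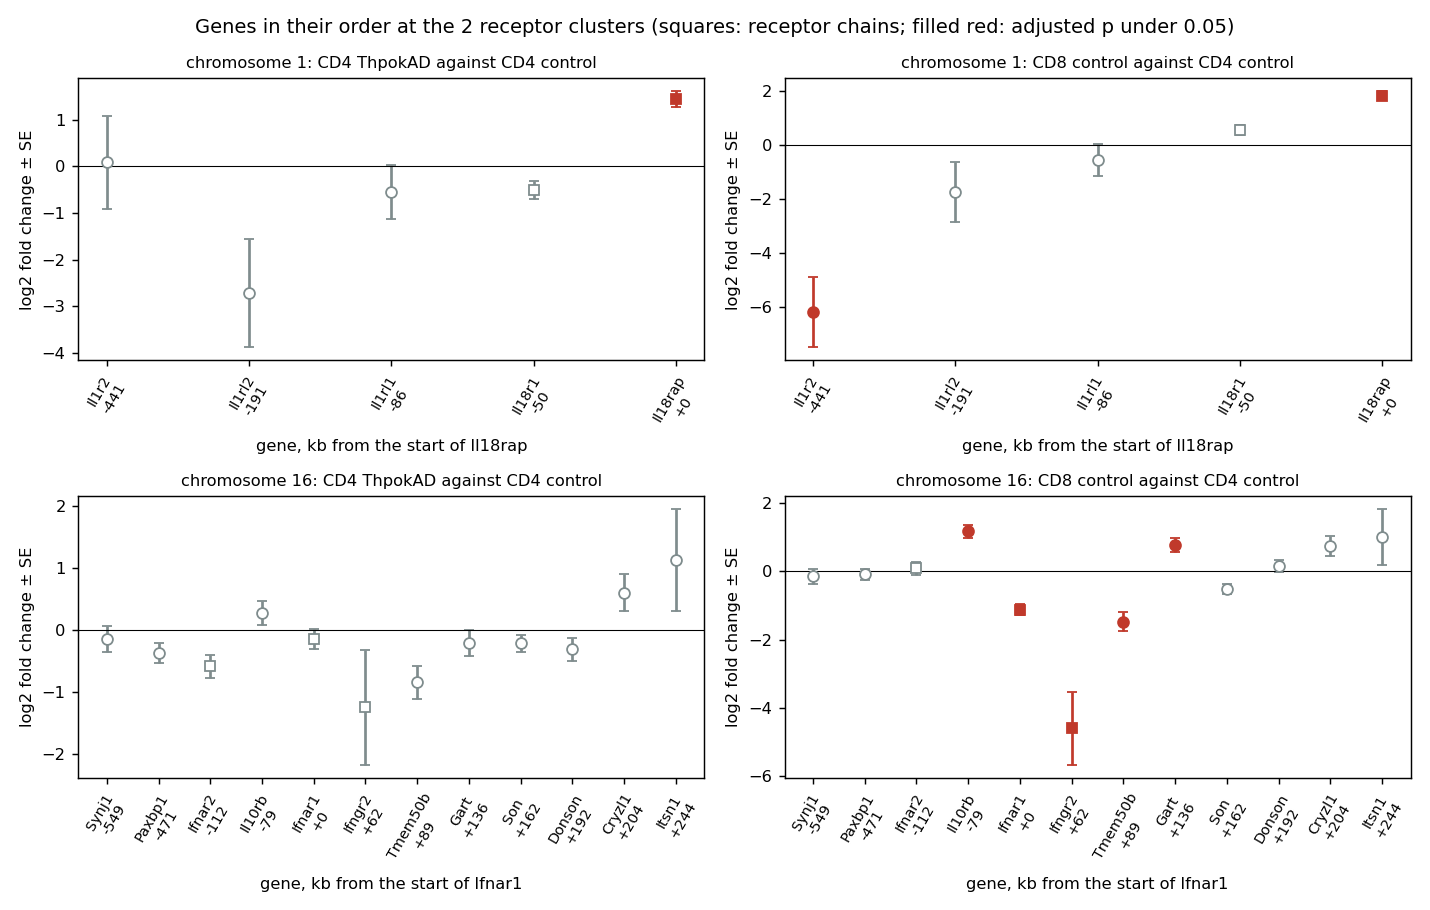
Log2 fold changes ± SE for the receptor chains (squares) and their neighbours (circles) on chromosomes 1 and 16, in gene order with the distance in kilobases from the start of Il18rap or Ifnar1 under each name, in CD4 ThpokAD (left) and CD8 control (right) against CD4 control; filled points had an adjusted p under 0.05. Genes with a mean under 2 CPM in every group are not drawn. Il10rb at 1.18 and Ifnar1 at -1.12 in CD8 control against CD4 control are neighbours with opposite signs.

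Of the related chains, 8 of 11 were tested, with a median log2 fold change of -0.10 in CD4 ThpokAD against CD4 control. Il10ra, the ligand-binding chain of the IL-10 receptor, rose in CD4 ThpokAD against CD4 control. It was the only call of the 8 there, where 2.74% of all genes were called. It averaged 120.7 ± 24.1 CPM in CD4 ThpokAD, 150.1 ± 31.5 CPM in CD8 control and 48.1 ± 9.06 CPM in CD4 control libraries (edgeR adjusted p = 0.0158 for CD4 ThpokAD against CD4 control), and this call was lost without any of CD4 ThpokAD replicates 1 and 2 or CD4 control replicates 1 and 3 (adjusted p between 0.0534 and 0.0777). Il10ra and Il10rb rose, and Il6st and Il1r2 fell, in CD8 control against CD4 control, where 11.7% of all genes were called. Il1r2 was no longer called without CD4 control replicate 2 (adjusted p = 0.0599). Of 9 ligands and decoys 4 were tested, with a median of 0.58 in CD4 ThpokAD against CD4 control and no call. Ifng averaged 438 ± 92.0 CPM in CD4 ThpokAD, 99.8 ± 38.9 CPM in CD8 control and 216 ± 49.1 CPM in CD4 control libraries. It rose in CD4 ThpokAD against CD8 control (edgeR adjusted p = 0.00387) and was not called against CD4 control (edgeR adjusted p = 0.117).

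None of the 13 kinases, STATs and adaptors below these receptors was called in CD4 ThpokAD against CD4 control (median log2 fold change 0.09). In that comparison 2.74% of all genes were called, so no call among 13 does not set them apart. The closest to the threshold were Jak1, which serves the interferon receptors and gp130, with a log2 fold change of 0.49 ± 0.12 (edgeR adjusted p = 0.0673), Irak4 with 0.83 ± 0.21 (0.0734) and Myd88 with 0.58 ± 0.15 (0.0914). Irak4 and Myd88 rose and Jak2, Stat3 and Irak2 fell in CD8 control against CD4 control, where 11.7% of all genes were called. Without CD4 control replicate 2, Irak4 was no longer called there (adjusted p = 0.055). Leaving out any 1 of the 3 CD4 control libraries, and some others, also ended the calls of Myd88, Jak2 and Stat3, with adjusted p up to 0.134, 0.0925 and 0.0948.

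Of 8 brakes on cytokine signalling, Socs3 alone was called in CD4 ThpokAD against CD4 control, where 2.74% of all genes were called. The median log2 fold change of the 8 was -0.39 there. Socs3, which binds gp130 and shuts off its signal, averaged 246 ± 33.1 CPM in CD4 ThpokAD, 41.4 ± 3.54 CPM in CD8 control and 585 ± 30.0 CPM in CD4 control libraries. It fell by 1.25 ± 0.13 on the log2 scale in CD4 ThpokAD against CD4 control (edgeR adjusted p = 0.00145). In CD8 control against CD4 control, where 11.7% of all genes were called, Socs3 and Cish fell and Usp18, which blocks signalling at IFNAR2, rose. Usp18 averaged 43.2 ± 5.44 CPM in CD4 ThpokAD, 117.6 ± 10.4 CPM in CD8 control and 47.1 ± 6.36 CPM in CD4 control libraries.

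Of the genes known to answer IL-12 or IL-18, interferon gamma and type I interferon, 1 of 5, 0 of 10 and 1 of 9 were called in CD4 ThpokAD against CD4 control (2.74% of all genes were), and 4 of 5, 4 of 10 and 2 of 9 in CD8 control against CD4 control (11.7% of all genes were). Of the 5 that answer IL-12 or IL-18 (median log2 fold change 1.02 in CD4 ThpokAD against CD4 control), Tbx21, the gene of T-bet, rose in CD4 ThpokAD against CD4 control, with 607 ± 79.6 CPM in CD4 ThpokAD, 559 ± 95.6 CPM in CD8 control and 292 ± 47.1 CPM in CD4 control libraries (edgeR adjusted p = 0.014). This call was lost without CD4 ThpokAD replicate 3 or CD4 control replicate 1 or 3 (adjusted p between 0.0574 and 0.0635). Tbx21 rose, and Ifng, Gadd45b and Furin fell, in CD8 control against CD4 control, although for Ifng 7 of the 9 fits with a library left out lost the call (adjusted p up to 0.126). Gadd45b, a stress-response gene, averaged 153 ± 26.1 CPM in CD4 ThpokAD, 23.4 ± 5.49 CPM in CD8 control and 222 ± 26.4 CPM in CD4 control libraries. The 10 genes that answer interferon gamma, none of them called in CD4 ThpokAD against CD4 control, had a median log2 fold change of -0.15 there. Gbp2 and Irgm1, which encode GTPases of cell-autonomous defence, rose in CD8 control against CD4 control, and the chemokine genes Cxcl9 and Cxcl10 fell. Cxcl9 had no count in any CD8 control library and 19, 37 and 33 counts in CD4 control libraries, and leaving out any single library of either control group ended its call (adjusted p up to 0.114).

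Of 9 genes that answer type I interferon, Irf7, a transcription factor that amplifies interferon production, was the only call in CD4 ThpokAD against CD4 control, where the median was 0.03. Irf7 averaged 492.5 ± 25.6 CPM in CD4 ThpokAD, 164.5 ± 24.3 CPM in CD8 control and 281 ± 19.0 CPM in CD4 control libraries (edgeR adjusted p = 0.012 for CD4 ThpokAD against CD4 control). The call was lost without CD4 ThpokAD replicate 1 or CD4 control replicate 2 or 3 (adjusted p between 0.053 and 0.0556). Irf7 and Isg15 fell in CD8 control against CD4 control.

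**Figure D5:**
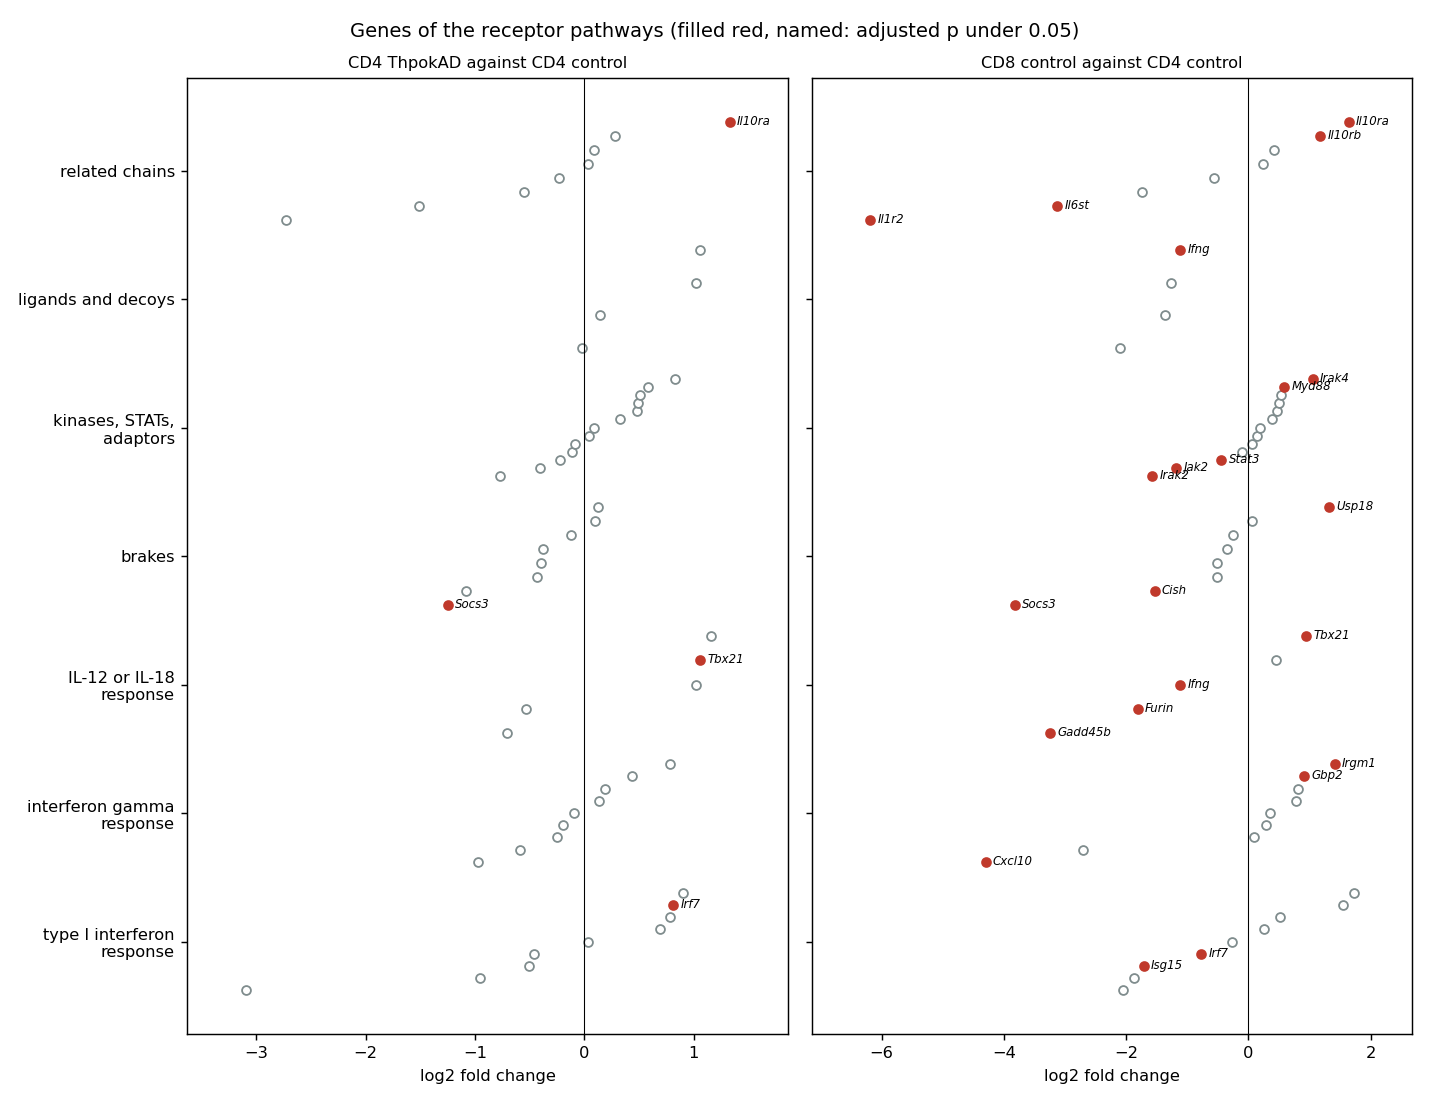
Log2 fold changes of genes in the pathway lists, 1 point per gene, in CD4 ThpokAD (left) and CD8 control (right) against CD4 control, with filled points where the adjusted p was under 0.05. Genes with a mean under 2 CPM in every group, Cxcl9 among them, are not drawn. Socs3 at -1.25 is the only filled brake in CD4 ThpokAD against CD4 control, and no kinase, STAT or adaptor is filled there.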

How the data were processed

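RNA was extracted with a low-input kit, made into full-length cDNA (SMARTer, Nextera XT) that does not mark strand, and sequenced as paired ends, per the labels' protocols. Tools listed in the submitters' processing notes are STAR, HTSeq, Trimmomatic, bcl2fastq 2.17 and DESeq2, with mm10 as the build. The gene annotation and strand setting behind the counting are not given in the sources used here. Deposited counts are whole reads per gene. The deposited scaled values are a signal, counts times 1 factor per library, and entered 1 alternative only, as log2(value + 1).

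Counts were tested with edgeR 4.0.16 (R 4.3.3) by its quasi-likelihood test after TMM scaling and a filter (minimum count 10, minimum total 15), with 1 coefficient per group over all 9 libraries. The tested genes hold at least 99.78% of each library's counts. Adjusted p-values (Benjamini-Hochberg) cover all 15738 tested genes of a comparison. Chain ratios use CPM per kilobase of merged exons (GENCODE M21), and exact permutation tests. RefSeq (GRCm38.p6) gave promoters for 7 of 9 chains. Alternatives were RLE scaling, DESeq2 1.42.0, no filter, 6 libraries only, a replicate block, limma 3.58.1, bias-adjusted deviances, longest-transcript lengths and each library left out. The scripts were tested on simulated data.

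The receptor chains and gene lists were chosen with earlier results of these data known. Named genes are the 9 chains, Zbtb7b, up to 4 called genes per list and comparison with the smallest adjusted p, and the 3 genes most correlated with each chain (mean of at least 10 CPM, log2 CPM with prior count 2). Il1rl1, Jak1 and the fifth called kinase or adaptor were named after their values were seen, as were Irak4 and Myd88 where not called and Ifng against CD4 control. Replicates differed by more than counting noise.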

Additional observations from a re-analysis of the deposited data

How the results depend on the processing

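Il18rap, Ifngr1 and Ifnar1 kept every call of theirs in the 3 comparisons under all alternatives tried. Chains called lower in CD4 ThpokAD against CD4 control numbered 1 with DESeq2 (Ifnar2) in place of 0. In CD4 ThpokAD against CD8 control they numbered 2 with DESeq2, limma and bias-adjusted deviances in place of 1, and 0 to 1 when single libraries were left out. In CD8 control against CD4 control the replicate block left 2 chains called lower in place of 3, since Ifngr2 had an adjusted p of 0.0774. Correlations between the deviations of same-numbered libraries lay between -0.0454 and 0.062. The labels do not say whether a number marks a shared animal or day, and the libraries were treated as unpaired. With the block, 86 genes were called lower in CD4 ThpokAD against CD4 control (146 without it) and 183 in CD4 ThpokAD against CD8 control (301 without it).

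Values near 0 changed sign. Ifngr1 in CD4 ThpokAD against CD4 control was -0.00116 with RLE scaling and -0.00115 with DESeq2, and -0.0964 to 0.11 with single libraries left out. Ifnar2 in CD8 control against CD4 control ran between -0.0137 and 0.22, and Il12rb2 in CD4 ThpokAD against CD8 control between -0.173 and 0.195, in the same way.

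Counts of called genes moved more. In CD4 ThpokAD against CD4 control they were 751 higher and 539 lower with DESeq2, 478 and 277 with limma, and 246 lower with the 6 libraries only and 225 lower with bias-adjusted deviances. In CD8 control against CD4 control they were 1312 higher and 1665 lower with DESeq2. In CD4 ThpokAD against CD8 control they were 1415 and 750 with DESeq2 and 1109 and 530 with bias-adjusted deviances. Leaving out single libraries gave 131 to 281 higher and 50 to 196 lower, 421 to 707 and 637 to 960, and 438 to 586 and 143 to 222 in those 3 comparisons. The cause was not tested, beyond fewer libraries in the fit. Lengths of the longest transcript shifted every log2 chain ratio by a constant, -0.175 for IL-12, 0.254 for IL-18, -0.408 for interferon gamma, -0.476 for type I interferon and 0.101 for IL-27 receptors, with no effect on differences. Which chain of a pair stands higher can change, as for Ifnar2 and Ifnar1 in CD8 control replicate 1. Counts of 0 to 470 limit what can be said of Ifngr2.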
